A study of Mus musculus with 3 samples.

Results

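Zeb1 and Zeb2 are the 2 genes of the ZEB family of transcription factors, and the regions described here are those that the authors' annotated peak tables of a Runx1 chromatin immunoprecipitation sequencing (ChIP-seq) study assign to either gene. They came to 54 of 15286 regions over 3 replicates, of which 52 were assigned to Zeb2 and 2 to Zeb1. Replicate 1 held 2 of 451 regions, replicate 2 held 11 of 1641 and replicate 3 held 41 of 13194. The 2 genes were chosen from these lists with their region counts known, so every count, width and fold below is a description and none was tested.

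The chromatin came from spinal cord cells of male C57BL/6J mice aged 8 to 10 weeks, with no treatment or genotype named in the labels. Whole perfused cords were dissociated and cleared of debris, cells of 5 cords were fixed together, and chromatin of 10 cords was pooled for each immunoprecipitation. About 10 µg of it was incubated with 9 µg of a rabbit polyclonal Runx1 antibody. The 3 replicates form 1 group, and the labels do not say whether they came from separate animals.

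No sort or gate is given for the cells, so the number of cells that carry a bound site and the amount bound per cell cannot be told apart. Of 10 genes that mark oligodendrocytes, 0, 7 and 10 had a region in replicates 1, 2 and 3, against 0, 1 and 2 of 10 microglial markers, 0, 1 and 3 of 8 astrocyte markers, 1, 1 and 7 of 8 neuronal markers and 0, 0 and 0 of 8 endothelial and mural markers. Of all coding genes 1.51%, 5.16% and 31.4% had a region. The part of any cell type in the values at Zeb2 and Zeb1 was not tested. Read totals were not used here, and the lowest background implied by the deposited values was 2.23, 2.67 and 3.13 fragments in replicates 1, 2 and 3.

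ZEB proteins carry a cluster of zinc fingers at each end and a homeodomain-like segment between them, and they bind E-box sequences that hold CACCT. They recruit corepressors such as CtBP, bind receptor-activated Smads of the BMP and TGF-β pathways, and are best known as repressors of epithelial genes in epithelial-mesenchymal transition, where microRNAs of the miR-200 family hold them down. In the nervous system Zeb2 is known for its part in neural crest, in cortical neurons and in Schwann cell and oligodendrocyte maturation, and it also acts in microglia and other macrophages. Runx1 is a DNA-binding factor with known roles in blood and myeloid cells, among others.

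Zeb2 (ENSMUSG00000026872) lies on the minus strand of chromosome 2 (44983512 to 45117442, GRCm38), 133931 bp long, and its distances below count downstream from the outermost RefSeq start at 45117442. RefSeq (GRCm38.p6) lists further starts of Zeb2 inside the gene. The 250 bases before 3 of these starts are shown because a region of every replicate covered the innermost of them, and regions of replicate 3 alone covered the other two. Capitals mark matches, on either strand, to CACCT, to the AP-1 motif TGANTCA and to the PU.1 motif GAGGAAG. All 3 windows are written 5′ to 3′ on the minus strand. They are chr2:45117443-45117692 before the outermost start, chr2:45113280-45113529 before the start at 45113279 and chr2:45110278-45110527 before the start at 45110277.
Zeb2 outermost start: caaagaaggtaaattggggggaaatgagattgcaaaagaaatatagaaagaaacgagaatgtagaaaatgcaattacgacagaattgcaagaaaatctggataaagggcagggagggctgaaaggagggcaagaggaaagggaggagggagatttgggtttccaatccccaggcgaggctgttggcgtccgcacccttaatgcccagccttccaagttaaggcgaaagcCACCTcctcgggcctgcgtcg
Zeb2 start 4.16 kb downstream: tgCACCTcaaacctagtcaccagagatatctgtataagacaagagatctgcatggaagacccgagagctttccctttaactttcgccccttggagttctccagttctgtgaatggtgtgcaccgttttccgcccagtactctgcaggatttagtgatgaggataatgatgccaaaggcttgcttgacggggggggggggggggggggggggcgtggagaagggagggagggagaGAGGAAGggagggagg
Zeb2 start 7.17 kb downstream: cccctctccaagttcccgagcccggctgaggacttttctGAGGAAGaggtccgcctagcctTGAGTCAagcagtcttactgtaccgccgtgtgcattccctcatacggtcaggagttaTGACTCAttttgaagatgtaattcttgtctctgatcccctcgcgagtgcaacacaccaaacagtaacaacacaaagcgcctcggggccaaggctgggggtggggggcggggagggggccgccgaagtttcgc

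The window 7.17 kb downstream was covered over all of its 250 bp in each of the 3 replicates. The windows at the outermost start and 4.16 kb downstream were covered over 250 bp in replicate 3 and over 0 bp in replicates 1 and 2. The windows were chosen with this cover known, so it is not a separate result. A window before a further start at 45113253, which overlaps the one 4.16 kb downstream, was also read and is not shown. From the start 7.17 kb downstream, the nearest summit was 399 bp away in replicate 1, 160 bp in replicate 2 and 227 bp in replicate 3. Their folds were 4.54, 4.88 and 11.46, and all 3 lay outside the window before that start. A replicate 2 summit at 45110521 (fold 5.67) lay inside the window, and a replicate 3 summit at 45110545 (14.69) lay just beyond its 5′ end. That window held TGAGTCA at position 62, TGACTCA at position 119 and GAGGAAG at position 40, counted from its 5′ end. TGANTCA occurs in 6.75% and GAGGAAG in 10.6% of 32851 RefSeq promoter windows of the same length. The RUNX motifs TGTGGT and TGCGGT, searched on both strands, occur in 14.0% and 5.10% of all windows and had no match in the windows shown. The same held for the E-boxes CACCTG (17.2%) and CACGTG (6.02%). CACCT, which is part of CACCTG, occurs in 46.0% of windows and was found in the windows at the outermost start and 4.16 kb downstream. A match or its lack describes only these letters in these windows.

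Zeb2 had 2 regions in replicate 1, 10 in replicate 2 and 40 in replicate 3, and it was among the 0.836% of 21887 coding genes with a region in all 3 replicates (183 genes). A coding gene had at least 1 region in 1.51%, 5.16% and 31.4% of cases in replicates 1, 2 and 3. Most genes with a region had a single one: 95.5%, 89.8% and 74.5% of them in the 3 replicates. Zeb2 regions covered 801 bp, 9006 bp and 45903 bp, or 0.466%, 1.01% and 0.543% of all covered sequence in each list. In numbers of regions Zeb2 came at rank 3 in replicate 1, shared by 13 genes with 2 regions, and at rank 1 in replicates 2 and 3. The next genes were Tcf4 and Hoxb3 with 6 regions each in replicate 2, and Tcf4 with 23, Qk with 19 and Mbnl2 with 16 in replicate 3. Tcf4 encodes an E protein, Hoxb3 a homeodomain protein of axial patterning, and Qk and Mbnl2 RNA-binding proteins of splicing; Hoxb3, Qk and Mbnl2 are named for this rank after their values were seen. Zeb2 also came at rank 1 in covered length and in summits in replicates 2 and 3, where it had 19 and 104 summits. In replicate 1 it came at rank 18 in covered length and rank 9 in summits.

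**Figure D1:**
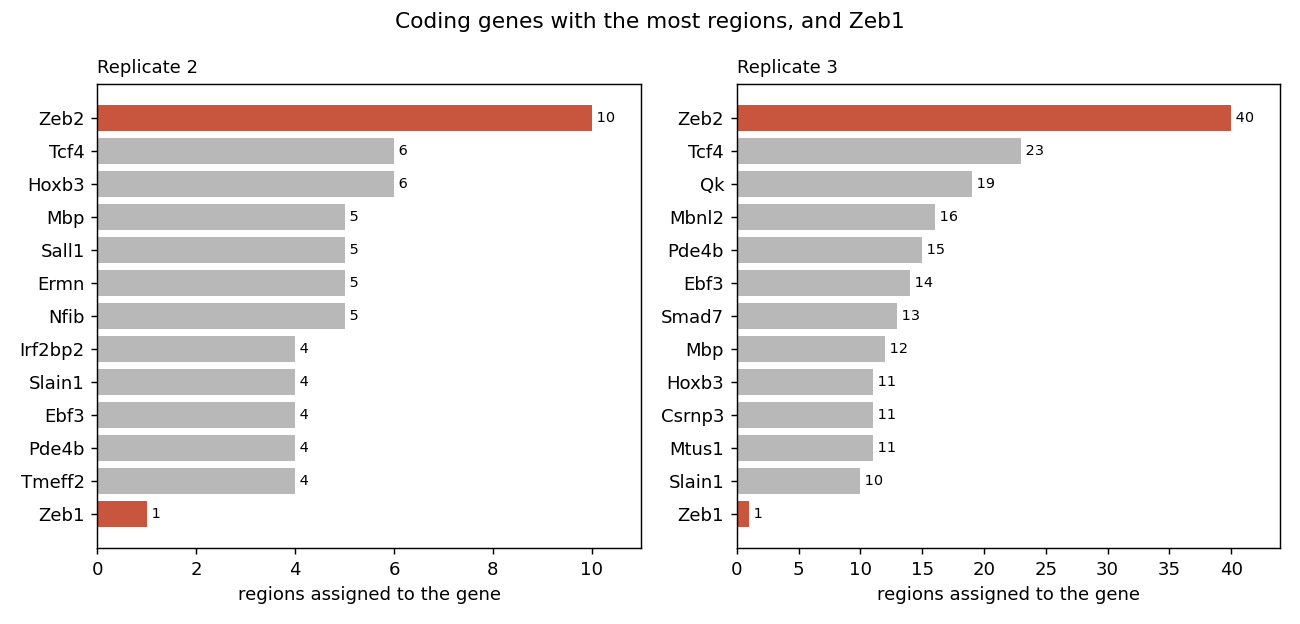
Horizontal bars give the number of regions assigned to each of the 12 coding genes with the most regions in replicate 2 (left) and replicate 3 (right), with Zeb1 added at the bottom and both ZEB genes in red. Zeb2 stands at 10 and 40 regions, against 6 and 23 for the next gene, and Zeb1 at 1 in both.

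Fold here is the authors' ratio of fragments at a summit to background, each with 1 added, and a region takes the fold of its strongest summit. The highest fold at Zeb2 was 4.54 in replicate 1, 8.32 in replicate 2 and 15.45 in replicate 3. By highest fold Zeb2 held rank 214 of 334, 8 of 1132 and 10 of 6934 annotated genes with a region. The typical Zeb2 region was much weaker than its strongest: median fold was 4.12, 4.07 and 3.88, against 4.86, 4.01 and 3.81 over all regions of each list. A fold of 5 or more was reached by 0 of 2, 2 of 10 and 6 of 40 Zeb2 regions, against 45.0%, 16.5% and 20.7% of all regions. In replicates 2 and 3 Zeb2 thus stood out by the number and length of its regions and by 1 stretch near its start. Yet 27 of its 40 regions in replicate 3 lay between percentiles 25 and 75 of fold in that list. In replicate 2 it was 4 of 10, and in replicate 1 it was 1 of 2.

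In replicate 1 the 2 Zeb2 regions lay 6.7 to 8.8 kb inside the gene. The stronger (45110248 to 45110773, 526 bp) had a fold of 4.54 from a pileup of 19 fragments, with an exact Poisson 95% interval of 11.4 to 29.7. The other (45108662 to 45108936, 275 bp) had a fold of 3.70 from 17 fragments (9.90 to 27.2). Both were below the list's median, at percentiles 38.4 and 12.1 of fold. The authors placed the stronger within 1 kb of a transcript start and the other 1 to 2 kb from one.

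In replicate 2, 7 of the 10 Zeb2 regions lay between 0.8 and 17.1 kb of the start and the other 3 between 54.7 and 63.7 kb. The widest spanned 45107399 to 45112433, or 5035 bp, and was the widest region of the whole replicate 2 list. It held 9 summits, and the strongest had a fold of 8.32 and a −log10 q of 23.20 at percentile 99.5 of fold, from 45 fragments (32.8 to 60.2). The 9 other Zeb2 regions had folds of 3.15 to 5.30, with the highest of them at 45112759 to 45113176. The authors classed 5 of the 10 regions as within 1 kb of a transcript start, 3 as intronic and 2 as exonic. Among these 5, the regions beginning at 45053743 and 45055221 had summits 63.62 and 62.14 kb from the outermost start. The 3 intronic ones lay in intron 3 of 10.

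In replicate 3 a single region ran from 45102847 to 45117879, from 0.44 kb before the outermost start to 14.6 kb inside the gene. Its 15033 bp made it the third widest region of that list and 32.7% of the sequence covered at Zeb2. It held 37 summits with folds of 3.10 to 15.45 and a median of 6.12, spaced 173 to 788 bp apart with a median of 407 bp. The strongest summit, at 6.27 kb, had a −log10 q of 64.6 from 78 fragments (61.7 to 97.3), and its fold put the region at percentile 99.9. Thus the highest summits did not sit at the outermost start. The 10 summits up to 3 kb downstream had a median fold of 4.49 (3.10 to 5.89), and the 8 summits from 3 to 6 kb had 7.35 (3.15 to 12.22). The 7 summits from 6 to 10 kb had a median of 11.46 (9.54 to 15.45), and the 12 beyond 10 kb had 6.06 (3.83 to 7.86). The limits of these bins were set after the values were seen. All 8 summits with a fold of 10 or more lay between 4.45 and 9.74 kb.

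**Figure D2:**
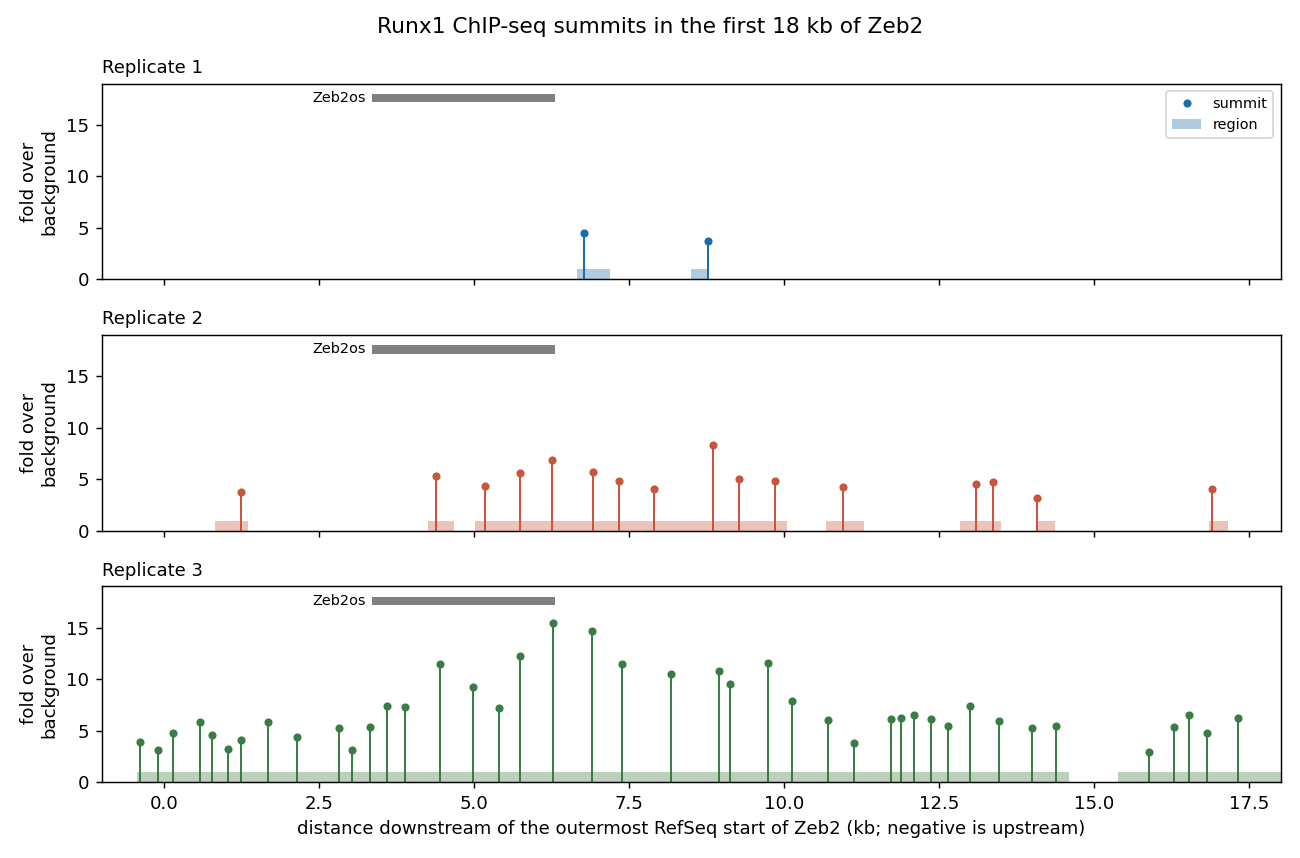
Points on stems give each summit's fold over background (vertical axis) against distance in kb downstream of the outermost Zeb2 start (horizontal axis), with regions shaded and the antisense gene Zeb2os as a grey bar, for replicates 1, 2 and 3. The highest summit stands at 6.77 kb in replicate 1 (4.54), 8.85 kb in replicate 2 (8.32) and 6.27 kb in replicate 3 (15.45).

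Of the 19 Zeb2 summits of replicate 2, 16 had a replicate 3 summit within 200 bp, with a median distance of 98 bp and a largest of 321 bp. The fold was higher in replicate 3 for 17 of the 19. The replicate 2 summit at 45111190 (fold 6.90) lay 15 bp from the highest of replicate 3 at 45111175 (15.45). The summit at 45108589 (8.32) lay 98 bp from one of 10.76, and that at 45116189 (3.74) lay 3 bp from one of 4.06. Both summits of replicate 1 had a neighbour in replicate 3, at 131 bp with a fold of 14.69 and at 181 bp with a fold of 10.76. Summits in the widest replicate 3 region lay a median of 407 bp apart, so most positions there have one within about 200 bp. The distances were not compared with those of other positions, so they do not show that summit positions recur between replicates. Folds come from lists called separately and with different backgrounds, so a higher fold in replicate 3 is not shown to be more binding.

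Outside the widest region, replicate 3 held 39 more Zeb2 regions with folds of 2.90 to 6.48 and a further 67 summits. The strongest of these, with 7 summits and a fold of 6.48, spanned 45098658 to 45102064 and lay next to the widest region. The next was an intronic region at 45068373 to 45069864 (1492 bp, fold 6.27), 48.24 kb from the start. Regions at 45019102 to 45020037 (5.66), 45020368 to 45020722 (5.62) and 45017325 to 45018036 (5.17) followed between 96.86 and 99.72 kb. These 5 and the widest region make up the 6 regions with a fold of 5 or more. Regions of Zeb2 had a median width of 587 bp in replicate 3, and 9 of the 40 were 1 kb or wider. The authors classed 24 as intronic, 12 as promoter (6 within 1 kb, 2 at 1 to 2 kb and 4 at 2 to 3 kb of a transcript start), 2 as exonic and 2 as 3′ UTR. Of the 12 promoter regions, only the widest region reached the outermost start. The strongest summits of the others lay 59.74 to 97.85 kb downstream, near starts of transcripts inside the gene. The 2 classed as 3′ UTR had theirs at 21.3 and 22.03 kb, far from the 3′ end of the gene. Of the 24 intronic regions, 21 lay in intron 3 of 10 of the assigned transcript.

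Joined where gaps were 5 kb or less, the replicate 3 regions formed 6 stretches along the gene. The 5′ stretch, from 0.4 kb before the start to 39.6 kb, held 13 regions and 62 summits and was covered over 68.3% of its length. A stretch from 55.1 to 72.7 kb held 11 regions, with a highest fold of 4.35, and one from 81.0 to 100.9 kb held 13, with a highest fold of 5.66. Single regions lay near 48, 111 and 117 kb. The longest part of the gene without a region was its last 16.3 kb, at the 3′ end. Regions were therefore spread along most of the gene and were densest in its 5′ part.

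**Figure D3:**
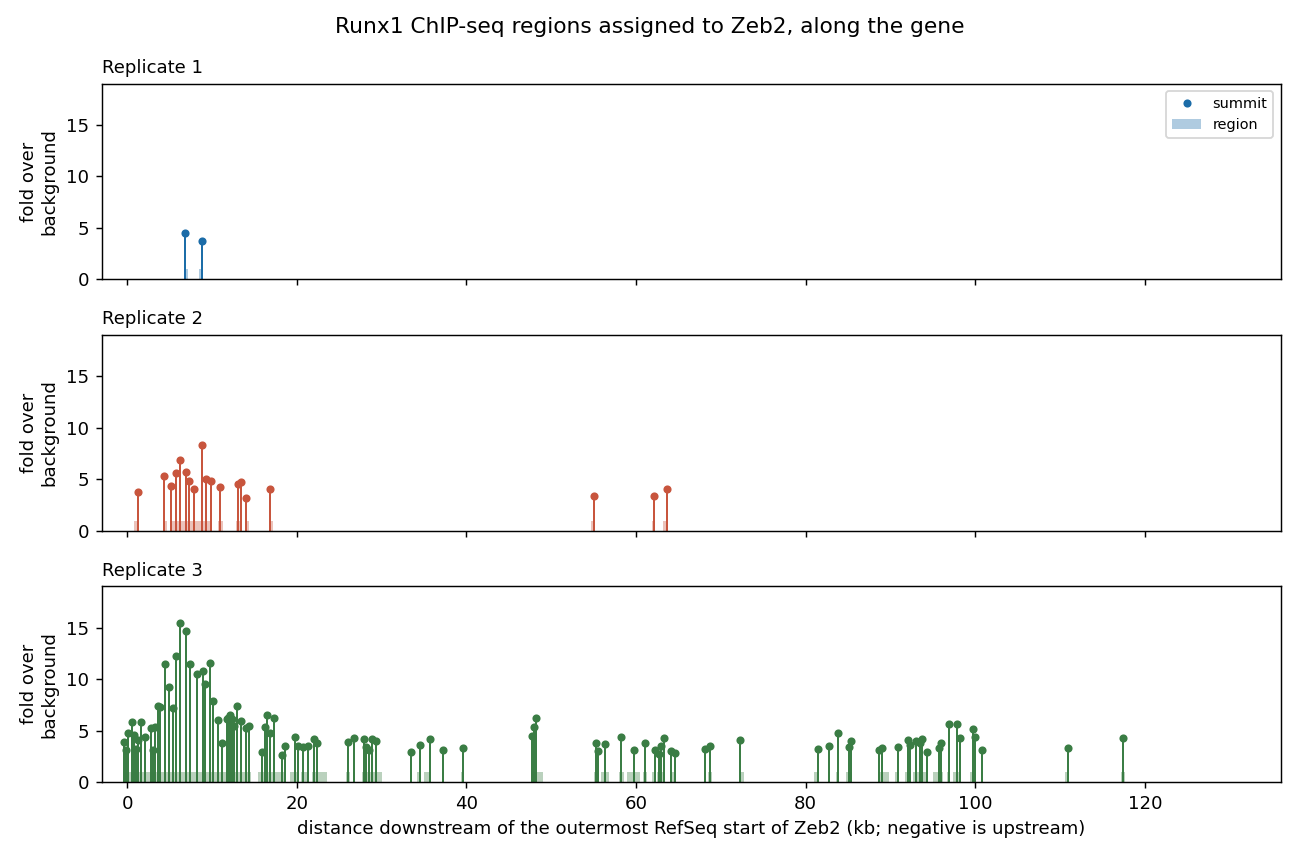
Points on stems give each summit's fold over background (vertical axis) against distance in kb downstream of the outermost Zeb2 start (horizontal axis), with regions shaded, along the whole gene in replicates 1, 2 and 3. Summits up to 15.45 crowd the first 15 kb in replicate 3, and its later regions stay at 6.48 or lower.

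To set Zeb2 beside genes of like size, the share of the body inside regions was taken for the 1439 coding genes of 100 to 200 kb, a range chosen after the values were seen. Zeb2 was covered over 0.598%, 6.95% and 33.9% of its body in replicates 1, 2 and 3, at rank 2, 1 and 1. The next gene in replicates 2 and 3 was Mbp, which encodes myelin basic protein, with 5.72% and 15.1%. Zeb1 was covered over 0%, 0.163% and 0.116% of its body, against a median gene at 0%, 0% and 0.0814%.

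**Figure D4:**
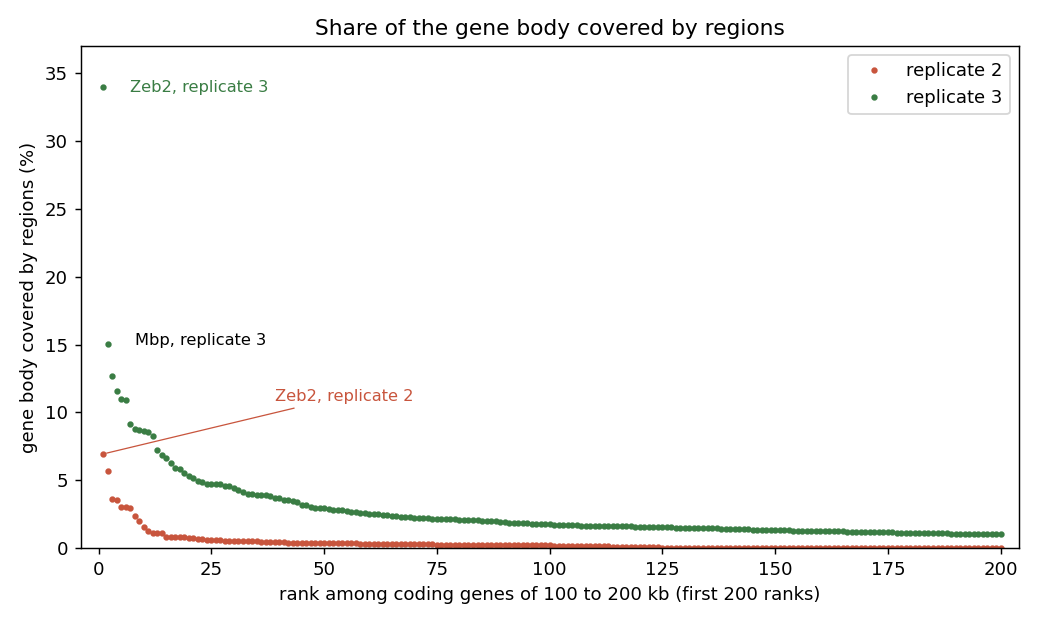
Points give the percentage of the gene body inside regions (vertical axis) for the 200 highest of 1439 coding genes of 100 to 200 kb (horizontal axis, rank) in replicates 2 and 3. Zeb2 stands alone at 33.9% in replicate 3, above Mbp at 15.1%, and leads replicate 2 at 6.95%.

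Both Zeb2 regions of replicate 1 lay inside regions of replicates 2 and 3, where 55.2% and 94.7% of all replicate 1 regions were overlapped. All 10 Zeb2 regions of replicate 2 were overlapped by replicate 3, against 92.1% of that list, and 1 was overlapped by replicate 1, against 14.8%. Of the 40 in replicate 3, 5 (12.5%) were overlapped by replicate 2, against 10.4% of all, and 1 by replicate 1, against 3.11%. In replicate 3 the Zeb2 shares by number of regions were close to those of the whole list. Most replicate 3 regions of Zeb2 were called in that replicate alone. The widest region counts as 1 here, although it overlaps several regions of replicate 2. By length, 18.9% of the Zeb2 sequence covered in replicate 3 lay inside replicate 2 regions. That share was not taken for the whole list. The 5 overlapped by replicate 2 had a median fold of 4.27 (3.14 to 15.45) and a median width of 870 bp. The 35 others had 3.82 (2.90 to 6.27) and 508 bp. These ranges overlap widely. The count of 5 rested on replicate 2: without it, 1 of the 40 was overlapped.

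Zeb1 (ENSMUSG00000024238, chromosome 18, 5591327 to 5775468, plus strand, 184142 bp) had no region in replicate 1 and 1 region each in replicates 2 and 3. It was thus among the 5.43% of coding genes with a region in at least 2 replicates. The replicate 2 region (5593222 to 5593522, 301 bp) had a fold of 3.45 and a −log10 q of 2.14, from 14 fragments (7.65 to 23.5). The replicate 3 region (5594888 to 5595101, 214 bp) had a fold of 2.70 and a −log10 q of 2.02, from 17 fragments (9.90 to 27.2). Both were weak within their lists, at percentiles 19.4 and 4.65 of fold. Their −log10 q values lay 0.14 and 0.02 above the lowest of their lists. The regions lay 1.97 and 3.63 kb inside the gene and did not overlap, with a gap of 1365 bp and summits 1657 bp apart. So no place in Zeb1 was called in more than 1 replicate, although the authors put both regions within 1 kb of a transcript start.

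Zeb2os, a non-coding gene antisense to Zeb2 (45111138 to 45114087, 2950 bp), had no region assigned to it. Its body lies inside Zeb2 and was covered by Zeb2 regions over 0 bp in replicate 1, 1714 bp (58.1%) in replicate 2 and 2950 bp (100%) in replicate 3. Regions here cannot be told apart as belonging to either gene. Gm10125, which RefSeq also calls Zeb1os, lies at the start of Zeb1 and held none in any replicate. A replicate 2 region inside Zeb2 (45114835 to 45115130, fold 3.40) was assigned to the small RNA gene Gm27645 and is not counted among the 10.

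The genes on either side of Zeb2 carried few regions. Gtdc1, a glycosyltransferase-like gene 55.8 kb beyond the 3′ end, had 0, 1 and 2 regions in replicates 1, 2 and 3, with a highest fold of 3.59 in replicate 2 and 5.40 in replicate 3. Arhgap15, the next, had none, and neither had Acvr2a, an activin receptor gene 3697 kb to the 5′ side. Orc4, an origin recognition subunit, had 1 in replicate 2 (3.20) and 1 in replicate 3 (5.41). Within 1000 kb before the Zeb2 start, replicate 3 held regions 166.3 kb away (45283729 to 45284449, fold 4.83), assigned to Vis1, and 239.7 kb away (45357165 to 45357788, fold 3.74), assigned to Gm13479. Around Zeb1, Arhgap12 had 1 region in each replicate (4.62, 3.69 and 6.76), Zfp438 had 1 in replicate 3 (4.62), Kif5b, a kinesin heavy chain gene, had 2 in replicate 3 (highest 7.44) and Svil had none. The neighbours of Zeb1 that had a region thus held higher folds than Zeb1 in the same replicate.

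Lists of genes tied to ZEB function were then counted. Of the 12 other zinc-finger homeobox genes, 1, 2 and 11 had a region in replicates 1, 2 and 3. Adnp, of neural development, had one in all 3 replicates with folds of 4.97, 4.71 and 5.85, and Zfhx4 had one in replicates 2 and 3 (3.70 and 6.08). The lists without Zeb1 and Zeb2 held 100 genes, and 4.00%, 9.00% and 47.0% of them had a region, against 1.51%, 5.16% and 31.4% of coding genes. In at least 2 replicates it was 11 of 100, or 11.0%, against 5.43%. That count rests on single replicates: it is 4 without replicate 2 and 2 without replicate 3.

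The counts that follow stand beside the same shares of all coding genes, 1.51%, 5.16% and 31.4% in replicates 1, 2 and 3. Among the 20 cofactor and chromatin genes, 1, 1 and 14 had a region. Sirt1, a deacetylase, had folds of 5.54 and 7.06 in replicates 1 and 3, and Hdac1, a histone deacetylase, had 4.19 and 3.41 in replicates 2 and 3. The counts of cofactor genes came almost wholly from replicate 3, where Ctbp1, a CtBP corepressor, had 6.56 and Mta2, of the NuRD complex, had 9.20. No part of the body of Ctbp2, also a CtBP gene, lay inside a region in any replicate. Of the BMP and TGF-β pathway, 0, 0 and 2 of 10 ligand genes, 0, 0 and 5 of 9 receptor genes and 0, 0 and 3 of 6 Smad genes had one. In replicate 3 these included Inhba (3.18), Bmpr1a (4.72) and Smad1 (3.63). Of 10 inhibitor genes, 1, 3 and 4 had a region. Smad7, the inhibitory Smad that blocks receptors, had 3, 3 and 13 regions with highest folds of 4.47, 6.45 and 13.09. Ski, a corepressor of Smads, had 3.90 in replicate 2 and 18.37 in replicate 3. Of the 6 Id and Hes targets, 0, 0 and 3 had a region, with Hes1 at 4.36. In replicate 3 the ligands' share, 20.0%, lay below that of all coding genes and the inhibitors' share, 40.0%, was near it.

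Of 11 other factors of epithelial-mesenchymal transition, 0, 3 and 4 had a region, against 1.51%, 5.16% and 31.4% of all coding genes. Their share was 27.3% in replicate 2, above that background, and 36.4% in replicate 3, near it. The 3 of replicate 2 were the E-protein genes Tcf3, Tcf4 and Tcf12. Tcf4 had folds of 6.56 and 8.61 in replicates 2 and 3 and Tcf3 had 5.39 and 8.19. Twist1 had regions in replicate 3 alone, with a highest fold of 3.82, and the Snai1, Snai2 and Snai3 genes had none in any replicate. Among 16 epithelial and mesenchymal genes, of which 1, 0 and 1 had a region (6.25%, 0% and 6.25%), Cdh2, for N-cadherin, was the one with a region, in replicate 1 (4.57) and replicate 3 (5.52), and Cdh1, for E-cadherin, had none. None of 6 miRNA genes of the miR-200 family and miR-205, which target ZEB transcripts, had a region in any replicate. The share of all miRNA genes with a region was not taken, so this count cannot be read as particular to these 6.

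**Figure D5:**
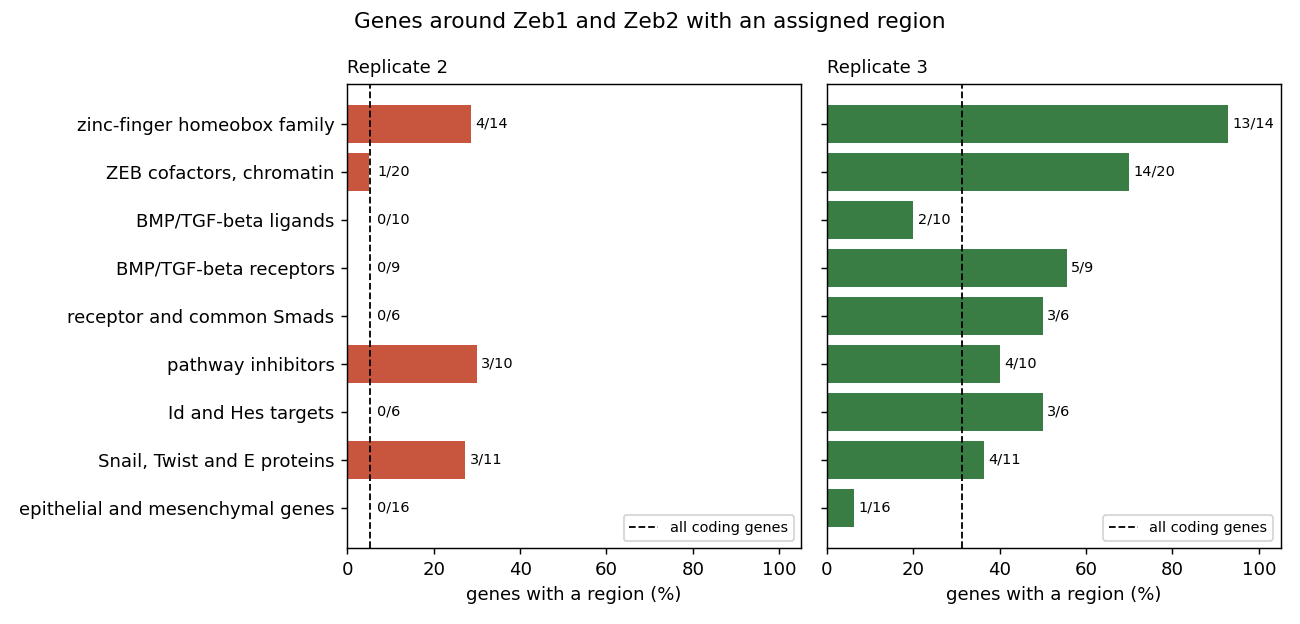
Bars give the percentage of each list's genes with a region in replicates 2 and 3, with the count over the list size beside each bar and a dashed line at the share of all coding genes (5.16% and 31.4%). The zinc-finger homeobox list, which here includes Zeb1 and Zeb2, reaches 13 of 14 in replicate 3, against 1 of 16 for the epithelial and mesenchymal genes.

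The genes most like Zeb2 were those with the smallest distance in log2(covered bp + 1) over the 3 replicates, among 7021 coding genes with a region. Bahcc1, which encodes a large BAH-domain protein, came nearest at a distance of 1.48, with 776 bp, 4894 bp and 20116 bp covered. Irf2bp2, a transcriptional corepressor, followed at 1.78 and Smad7 at 1.84, then Tnrc18 at 3.04 and Brinp3 at 3.07. These genes reached their length with fewer regions than Zeb2: 6 at Bahcc1, 7 at Irf2bp2 and 13 at Smad7 in replicate 3, against 40 at Zeb2. Their widest replicate 3 regions were 13282 bp at Bahcc1, 6973 bp at Irf2bp2 and 7925 bp at Smad7, against 15033 bp at Zeb2. By this measure a gene with 0 bp in replicate 1 falls far from Zeb2, whatever its other values. Tcf4, Qk and Mbp, without a region in replicate 1, covered 23.35, 20.99 and 17.56 kb in replicate 3. Tnrc18 and Brinp3 covered 10.66 and 15.29 kb there. The genes most like Zeb1 were Ticam2 (0.14), Fdxacb1 (0.16), Cop1 (0.18), Rpl19 (0.19) and Cdk7 (0.20), each with 0 bp in replicate 1 and 1 short region's length in replicates 2 and 3. These distances describe 3 values per gene and say nothing of shared control.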

How the data were processed

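Runx1 ChIP-seq peak lists of 3 spinal cord replicates of 1 group were used. Replicate 3 was put in the group by its title, since its tissue field holds the antibody text. MACS2 2.1.2, Bowtie2, Trimmomatic 0.38, Picard 2.18.26, SAMtools 1.9, FastQC and the build GRCm38 appear in the submitters' processing notes. Roles, settings and the control library are not stated in what was used here. For every summit the deposited lists hold −log10 q, −log10 p, the fold (a ratio to background) and a score, all from the authors' peak caller. The lists were called per replicate and their −log10 q starts near 2.00, per the deposited values. The authors' annotated tables give each region's location class and gene.

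Regions were counted once, with the fold of their strongest summit, and starts were turned to count from 1. From fold and −log10 p a whole-number pileup and its Poisson background were solved, which gave a match within 0.001 for 100% of summits in each replicate, and for 100% of 2000 simulated summits. Pileups have exact Poisson 95% intervals that cover counting error only. Depth was otherwise unknown. Overlap was at least 1 bp. Annotated symbols matched the RefSeq table for 98.8%, 99.7% and 99.1% of coding genes in replicates 1, 2 and 3.

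The members and gene lists were chosen with earlier results of these data known, and no test between genes or replicates was made. Named genes were the members, their antisense genes, the nearest 2 coding genes on each side, up to 4 genes per list (those called in the most replicates, then by highest fold in replicate 3), and the 5 genes most like each member. Alternatives were stricter q and fold limits, gene-body assignment, joined regions, equal list lengths, other overlaps and leaving out replicates. The work was done in Python 3.11.15 with matplotlib 3.10.9, scipy 1.17.1, pandas 2.3.3 and numpy 2.4.6.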

Additional observations from a re-analysis of the deposited data

How the results depend on the processing

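No paired analysis was possible because all samples belong to 1 group. With regions of q at or below 1e-05, Zeb2 kept 0, 5 and 21 regions in replicates 1, 2 and 3, and with a fold of 5 or more 0, 2 and 6. Joining regions closer than 1 kb gave 6 and 16 in replicates 2 and 3, and taking as many regions of lowest q from each list as the shortest holds gave 4 and 1. Zeb1 had 0 regions in replicates 2 and 3 under the q limit, the fold limit and equal list lengths. The Zeb2 regions of replicate 3 overlapped by another replicate were 3 when an overlap of 50% of the shorter region was asked for and 3 when summits had to lie within 200 bp, and 1 to 5 when a replicate was left out. List genes with a region in at least 2 replicates were 6 under the q limit, 4 under the fold limit and 2 to 9 when a replicate was left out. The covered length of Zeb2 stayed within 1.5 times of its value under the q limit and gene-body assignment in replicates 2 and 3. Under 2 alternatives chosen after seeing the data it fell to 5453 bp in replicate 2 and 21935 bp in replicate 3 (fold limit), and to 15033 bp in replicate 3 (equal list lengths). The highest fold was the same in each of these. In replicate 1 no Zeb2 region was left under the q or fold limit, so these had no value there, and Zeb1 had no region in replicate 1 to vary. List length limits any comparison of counts between replicates, since replicate 3 holds 13194 regions and replicate 1 holds 451.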
